A study of Mus musculus with 16 samples.

Results

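The 10 genes described here mark the priming of blood progenitors towards the lymphoid lineages: Dntt, Rag1, Rag2, Ccr9, Il7r, Flt3, Cd79b, Notch1, Lck and Satb1. They were taken by symbol from the authors' deposited tables of 23420 gene names each, and all 10 have a row in both tables. The tables compare libraries labelled Tet2KO (genotype Tet2-/-) with WT libraries (genotype Tet2fl/fl, a floxed allele) from mouse bone marrow at 40 weeks of age, with 4 libraries from individual mice per genotype and population. Multipotent progenitors (MPP) were sorted as Lin-, Kit+, Sca1+, CD48+ and CD150-, and granulocyte-monocyte progenitors (GMP) as Lin-, Kit+, Sca1-, CD150- and CD16/32+. The driver that removed Tet2 is not given in the sources used here. Of the 4 mice per genotype and population, 3 gave both populations.

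Lymphoid priming is the low-level switching on of lymphoid genes in progenitors that can still form myeloid cells. FLT3 and the interleukin-7 receptor pass on survival and growth signals, and NOTCH1 directs cells towards the T lineage. The RAG1 and RAG2 proteins together cut antigen receptor genes, and terminal transferase, the product of Dntt, adds bases to the cut ends. TET2 oxidizes 5-methylcytosine, which in mammalian DNA lies mostly in CpG dinucleotides.

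Promoter windows of 9 members were found in RefSeq (GRCm38.p6). The 250 bases before the start site are shown for the 3 members with the lowest fold changes in MPP, for Rag1 as the neighbour of Rag2, and for Notch1 as a CpG-richer promoter. Sequences run 5′ to 3′ on the gene's strand, and capitals mark CpG dinucleotides. Start sites are those of RefSeq, which for Ccr9, Il7r and Notch1 lie inside the longer GENCODE gene. Further annotated starts of Lck and Satb1 also lie inside the gene.
Dntt (chr19:41029025-41029274, plus strand): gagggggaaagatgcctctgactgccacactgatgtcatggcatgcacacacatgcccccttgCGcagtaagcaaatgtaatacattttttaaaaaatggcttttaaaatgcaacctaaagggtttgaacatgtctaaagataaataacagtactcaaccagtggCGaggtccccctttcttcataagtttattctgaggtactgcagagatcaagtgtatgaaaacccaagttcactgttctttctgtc
Ccr9 (chr9:123766961-123767210, plus strand): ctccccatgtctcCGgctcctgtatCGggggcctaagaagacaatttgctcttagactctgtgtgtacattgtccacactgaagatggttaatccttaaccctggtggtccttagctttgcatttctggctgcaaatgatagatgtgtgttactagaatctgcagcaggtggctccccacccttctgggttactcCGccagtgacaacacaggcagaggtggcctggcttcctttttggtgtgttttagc
Rag2 (chr2:101624462-101624711, plus strand): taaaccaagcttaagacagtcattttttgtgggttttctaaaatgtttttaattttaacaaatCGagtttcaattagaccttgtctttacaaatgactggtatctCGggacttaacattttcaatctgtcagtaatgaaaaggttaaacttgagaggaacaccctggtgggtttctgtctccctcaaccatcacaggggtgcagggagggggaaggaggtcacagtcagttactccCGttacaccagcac
Rag1 (chr2:101649533-101649782, minus strand): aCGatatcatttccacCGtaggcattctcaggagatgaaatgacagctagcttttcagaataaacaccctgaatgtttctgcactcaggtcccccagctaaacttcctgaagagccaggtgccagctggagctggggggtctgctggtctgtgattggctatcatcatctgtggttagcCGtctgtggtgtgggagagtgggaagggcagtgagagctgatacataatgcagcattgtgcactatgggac
Notch1 (chr2:26503823-26504072, minus strand): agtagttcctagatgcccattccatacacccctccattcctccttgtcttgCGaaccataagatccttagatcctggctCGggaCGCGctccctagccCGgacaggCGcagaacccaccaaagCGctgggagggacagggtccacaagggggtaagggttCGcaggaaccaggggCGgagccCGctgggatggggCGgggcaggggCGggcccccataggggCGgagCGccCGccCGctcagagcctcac

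The windows differed in their number of CpG. The Dntt window held 2 CpG, those of Rag1, Rag2 and Ccr9 held 3 each, and that of Il7r held 1. Lck has a pair of annotated start sites, with 1 CpG before the distal and 3 before the proximal site. At most 3 CpG were found in 37.8% of all 32851 RefSeq windows of this length, whose median was 6. The windows of Flt3 and Notch1 held 13 and 16 CpG, and 31.5% of all windows held at least 13. Satb1 has 5 annotated windows with 3 to 41 CpG.

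The E-box CANNTG, which reads the same on both strands and is bound by E proteins and other basic helix-loop-helix factors, occurred 3 times each before Dntt, Rag1 and Il7r and 2 times before Ccr9. The windows of Rag2 and Flt3 held 1 each and that of Notch1 held 0. Lck had 0 before the distal and 1 before the proximal start, and the Satb1 windows held 0 to 2. At least 1 E-box was found in 66.2% of all windows and at least 3 in 12.2%. The RUNX core TGTGGT, searched on both strands like the motifs that follow, occurred 2 times before Rag1 and 1 time before the distal start of Lck, and was found in 14.0% of all windows. The Ikaros core TGGGAA occurred 1 time each before Rag1, before the distal start of Lck and in 1 of the Satb1 windows, and was found in 21.6% of all windows. The PU.1 core GAGGAA occurred 1 time each before Rag2, Notch1 and the distal start of Lck, and 1 or 2 times in 3 of the 5 Satb1 windows, and was found in 23.3% of all windows. A match describes letters and was not tested as a binding site.

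The tables hold no values per library. A level below is therefore the authors' mean over the libraries of a population with both genotypes together, and the spread among mice is visible only through the standard error (SE) of a fold change. Read depth per library is unknown. In the authors' deposited tables the sorted populations carried their gate markers: Ly6a, which encodes Sca1, had a mean of 266 in MPP and 19.5 in GMP, and Fcgr3, which encodes CD16, had 19.3 in MPP and 525 in GMP. Of genes the sort selects against, Cd3e, which marks T cells, had a mean of 0.666 in MPP and 0.250 in GMP, and Slamf1, which encodes CD150, had 26.7 in MPP and 3.77 in GMP. The myeloid gene Itgam, which encodes CD11b, had 841 in MPP and 572 in GMP, in the same tables. Tet2 itself was higher in Tet2KO-labelled libraries in the authors' deposited tables, with log2 fold changes of 0.44 (adjusted p = 0.00551, SE 0.0992) in MPP and 0.35 (adjusted p = 0.000409, SE 0.0748) in GMP. Values are given per gene and not per exon, so they do not check the labels, and why Tet2 was higher was not tested. Directions are given as the labels name the groups.

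Most of the 10 genes were more abundant in MPP than in GMP. As a share of the summed means of its table, in parts per 1000000 (ppm), Dntt stood at 244 ppm in MPP and 2.47 ppm in GMP, a ratio of 98.7. The ratio of the shares, MPP over GMP, was 28.3 for Il7r, 22.8 for Rag1 and 10.4 for Lck, the kinase that starts T cell receptor signalling. It was 5.61 for Flt3, 4.04 for Ccr9, 3.19 for Rag2, 2.29 for Satb1 and 1.53 for Notch1. Cd79b, which encodes a signalling chain of the B cell receptor, was the exception at 0.839, with 11.7 ppm in MPP and 14.0 ppm in GMP. Across the 11618 genes that reached a mean of 10 in each population, the log2 ratio had a median of 0.16, with its 5th percentile at -0.60 and its 95th at 1.36. The log2 ratios of Dntt (6.62), Il7r (4.82), Rag1 (4.51), Lck (3.38), Flt3 (2.49), Ccr9 (2.02) and Rag2 (1.67) lay above that range, although Rag1, Il7r and Lck have GMP means under 10. The tables were normalized separately by the authors and give no error for a mean, so these ratios are descriptions without a test.

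**Figure D1:**
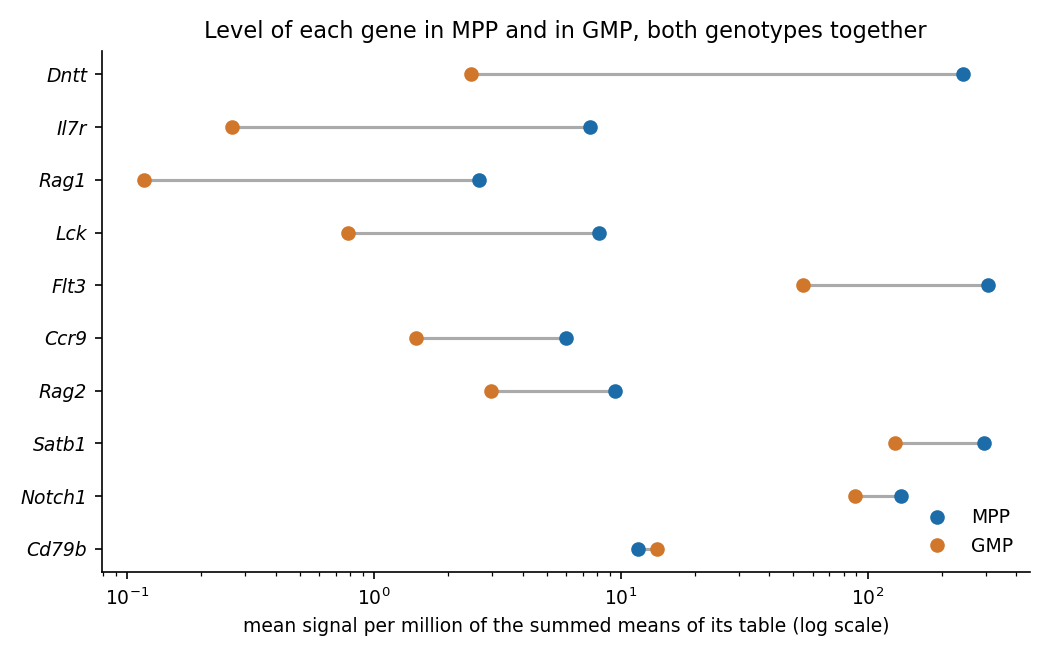
Level of each gene as its share of the summed mean signal of its table, in ppm on a log scale, for MPP and GMP with both genotypes together. Dntt had the widest gap, at 244 in MPP and 2.47 in GMP, and Cd79b was the gene that was not higher in MPP.

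Per kilobase of annotated exon, which allows genes to be compared, Dntt led in MPP with a share of 106 ppm per kilobase, ahead of Flt3 with 49.5, Satb1 with 15.6, Notch1 with 9.61 and Cd79b with 8.20. Lck (2.78), Rag2 (2.76) and Il7r (1.61) followed, and Ccr9 (0.584) and Rag1 (0.404) were the lowest. In GMP the order was different, with Cd79b at 9.76 ppm per kilobase, Flt3 at 8.83, Satb1 at 6.80 and Notch1 at 6.27. There Dntt stood at 1.08, Rag2 at 0.868, Lck at 0.268, Ccr9 at 0.144, Il7r at 0.0569 and Rag1 at 0.0177 ppm per kilobase. The exon length is that of all annotated transcripts joined, 10260 bp for Ccr9 and 19027 bp for Satb1, so genes with long joined exons may be understated. Whether neighbours in either order differ could not be tested.

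In MPP, Rag2 and Ccr9 were lower in Tet2KO libraries, and each of the 10 genes had a log2 fold change below 0. Both genes passed the authors' adjusted p of 0.05 (DESeq2), that is 2 of the 7 members tested. Of all 11859 genes tested in MPP 0.616% passed, 0.346% as higher and 0.27% as lower. The other 3 members, Dntt, Flt3 and Notch1, carry an outlier mark and no p-value. The 7 tested members had a median log2 fold change of -0.57, against -0.0038 over all tested genes, and all 7 lay below 0, as did 50.9% of all tested genes. An unadjusted p under 0.05 was reached by 4 of the 7, against 9.72% of all tested genes. Because the members were chosen with earlier results of these data known, these counts and medians only describe the list. Under an empirical null, which divides each statistic by its robust spread of 1.15 over all genes, 0 members passed, with an adjusted p of 0.140 for Rag2 and 0.203 for Ccr9.

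Among the recombination genes, Rag2 (chr2:101624718-101632529, plus strand, mm10) had a mean of 89.3 in MPP and fell by 0.96 (adjusted p = 0.0169, SE 0.241) on the log2 scale in the authors' deposited table. This is a fold of 0.513, Tet2KO over WT, with a 95% interval of the log2 value between -1.44 and -0.49. Its neighbour Rag1 (chr2:101638282-101649501, minus strand), whose end faces that of Rag2 across 5752 bp, had a mean of 25.2 and a log2 fold change of -0.23 (adjusted p = 0.912, SE 0.381) in the authors' deposited table. The interval of Rag1 lay between -0.98 and 0.52, which includes both 0 and the value of Rag2. The gene B230118H07Rik shares 208 exonic bp with Rag2 on the opposite strand and 80 with Rag1 on the same strand, and whether reads were counted by strand is not given in the sources used here, so reads there are uncertain. In the authors' deposited table B230118H07Rik had a mean of 238 and a log2 fold change of -0.29 (adjusted p = 0.468, SE 0.141) in MPP.

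Dntt (chr19:41029275-41059525, plus strand, mm10) had the lowest log2 fold change of the 10 genes in MPP, -1.32 (SE 0.200) in the authors' deposited table at a mean of 2300.3. This is a fold of 0.401, Tet2KO over WT, with an interval between -1.71 and -0.93, and among the 2182 genes whose MPP mean reached 1000 it was the lowest value. DESeq2 gives an outlier mark where single libraries weigh heavily on a gene's fit, and which library or genotype this was cannot be read from the table. The value is therefore a description. With outlier-marked genes included and p computed from the log2 fold change over its SE, the adjusted p of Dntt was 2.38e-07, and 0.7% of all genes passed in that setting. The fold change without the library behind the mark could not be computed.

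Of the receptors, Ccr9 (chr9:123678439-123784330, plus strand, mm10), which binds the chemokine CCL25 and guides progenitors to the thymus, fell by 1.22 (adjusted p = 0.0299, SE 0.320) in MPP in the authors' deposited table, a fold of 0.431, Tet2KO over WT. Its interval lay between -1.84 and -0.59. It was weakly expressed, with a mean of 56.6, and had the 14th lowest log2 fold change of the 12289 genes with a mean of at least 10. Ccr9 shares 1932 exonic bp with AC165425.1 and Notch1 1068 with 0610009E02Rik, both on the opposite strand, so reads there are uncertain too. Il7r had a value of -0.57 (adjusted p = 0.399, SE 0.248) at a mean of 70.8 in the authors' deposited table, with an interval between -1.06 and -0.08. Flt3 and Notch1, with means of 2886 and 1291, carried the outlier mark. In the authors' deposited table Flt3 stood at -0.39 (SE 0.158) and Notch1 at -0.48 (SE 0.196), with intervals between -0.70 and -0.08 and between -0.86 and -0.09. With outlier-marked genes included, neither passed (adjusted p of 0.328 for Flt3 and 0.347 for Notch1). Cd79b stood at -0.0023 (adjusted p = 0.997, SE 0.201) at a mean of 111 in the authors' deposited table, with an interval between -0.40 and 0.39.

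Lck had a log2 fold change of -0.86 (adjusted p = 0.231, SE 0.307) at a mean of 77.0 in MPP in the authors' deposited table. Its interval between -1.46 and -0.25 left out 0, although the gene did not pass after adjustment. Satb1, a chromatin organizer needed for T cell development, had a value of -0.01 (adjusted p = 0.990, SE 0.117) at a mean of 2794 in the authors' deposited table, with an interval between -0.24 and 0.22. Whether members differ from each other in their change was not tested.

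**Figure D2:**
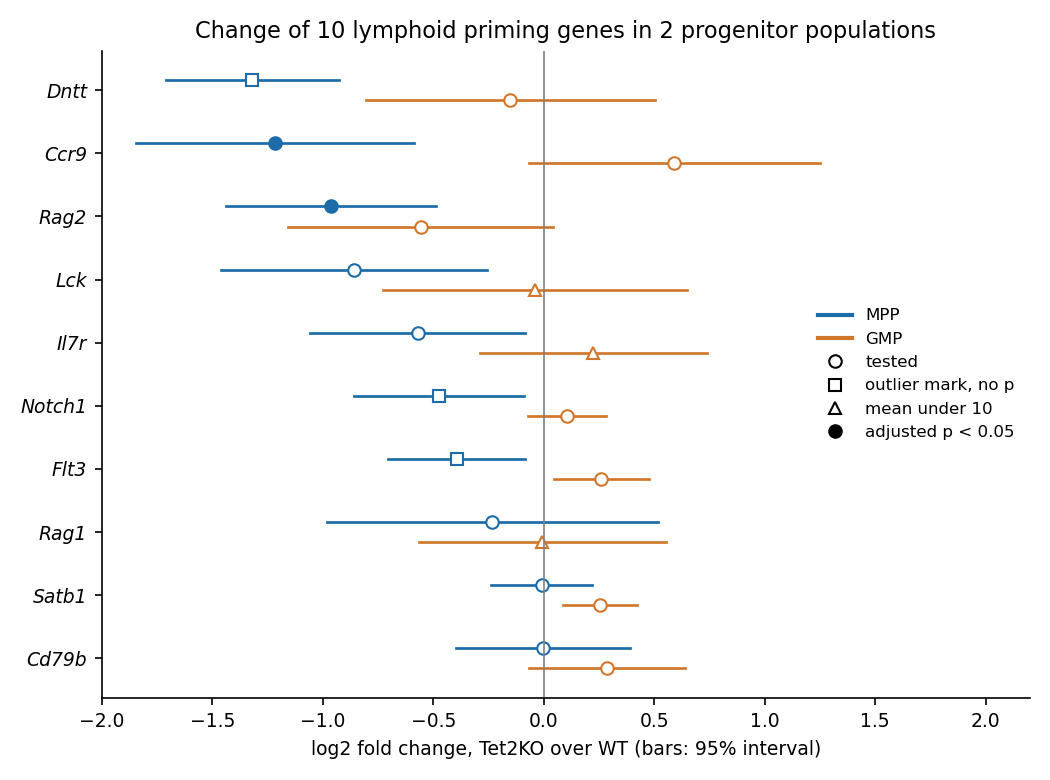
Log2 fold change of each gene, Tet2KO over WT, with its 95% interval in MPP and GMP, with filled points for an adjusted p under 0.05 and separate marks for genes with an outlier mark or a mean under 10. Ccr9 (-1.22) and Rag2 (-0.96) in MPP are the filled points, and in GMP the values lie on both sides of 0.

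The outlier mark fell on 3.50% of all genes whose MPP mean reached 10, on 3 of the 10 members and on 4 of the 8 GMP gate markers. Those 4 were the granule protein genes Mpo, Elane, Prtn3 and Ctsg, with log2 fold changes of 0.54 (SE 0.325), 0.35 (SE 0.379), 0.26 (SE 0.314) and 0.05 (SE 0.328) in MPP in the authors' deposited table. Of 11 monocyte markers 6 carried the mark in MPP, and 5 of those lay above 0. They were Ccr2 at 0.89 (SE 0.382), Ly6c2 at 0.79 (SE 0.371), Ms4a6c at 0.55 (SE 0.272), Irf8 at 0.47 (SE 0.238) and Csf1r at 0.34 (SE 0.362), while F13a1 stood at -0.07 (SE 0.387), in the authors' deposited table. Of 13 erythroid markers 8 carried the mark, with values between -0.32 for Gata1 and 0.21 for Rhag. The other 5 had means under 10, so they lie outside the genes behind the 3.50%. The part of such cells in the values of Dntt, Flt3 and Notch1 was not tested. In bulk samples, fewer cells of a type and less RNA per cell cannot be told apart.

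In GMP 0 of the 7 tested members passed the authors' adjusted p of 0.05 (DESeq2), while 2 had an unadjusted p under 0.05. Of all 11503 genes tested in GMP 3.96% passed, 1.75% as higher and 2.22% as lower, and 16.4% had an unadjusted p under 0.05. Rag1, Il7r and Lck were not tested, with means of 1.29, 2.93 and 8.67, under the minimum of 10. Their log2 fold changes in the authors' deposited table were -0.01 (SE 0.285) for Rag1, 0.23 (SE 0.262) for Il7r and -0.04 (SE 0.350) for Lck. The 7 tested members had a median log2 fold change of 0.25, against 0.00025 over all tested genes, and 2 lay below 0. The genes with an unadjusted p under 0.05 were Satb1 at 0.25 (adjusted p = 0.0622, SE 0.0854) and Flt3 at 0.26 (adjusted p = 0.173, SE 0.109) in the authors' deposited table. Their intervals lay between 0.09 and 0.42 for Satb1 and between 0.05 and 0.47 for Flt3.

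Among the recombination genes in GMP, Rag2 had a value of -0.56 (adjusted p = 0.355, SE 0.306) and Dntt of -0.15 (adjusted p = 0.888, SE 0.334) in the authors' deposited table. Their means of 32.8 and 27.3 came with wide intervals, between -1.16 and 0.04 for Rag2 and between -0.81 and 0.50 for Dntt. The interval of Rag2 includes both 0 and its value in MPP. Ccr9 stood above 0 at 0.59 (adjusted p = 0.378, SE 0.336) in the authors' deposited table, with a mean of 16.4 and an interval between -0.07 and 1.25. Cd79b had a value of 0.29 (adjusted p = 0.446, SE 0.180) and Notch1 of 0.11 (adjusted p = 0.626, SE 0.0908) in the authors' deposited table. Their intervals lay between -0.07 and 0.64 for Cd79b and between -0.07 and 0.28 for Notch1.

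**Figure D3:**
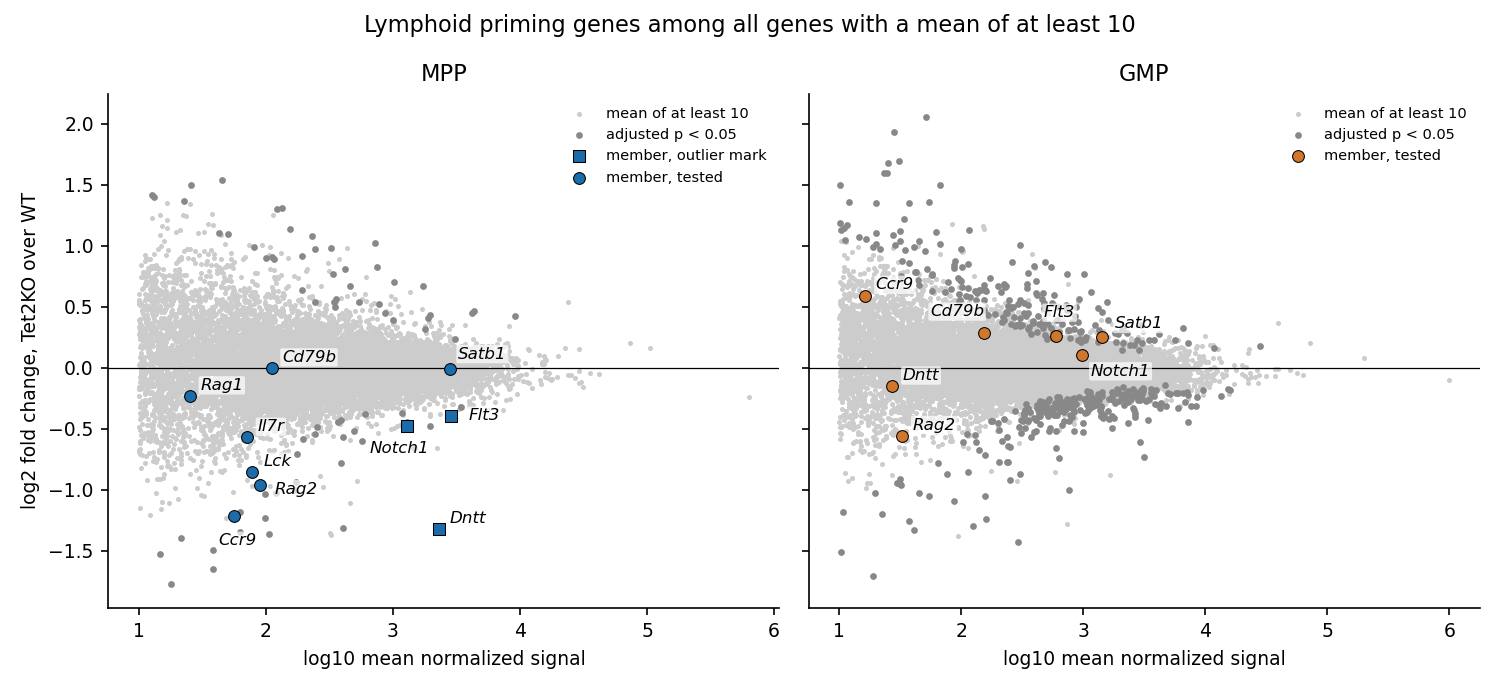
Log2 fold change, Tet2KO over WT, against the mean normalized signal (log scale) for all genes with a mean of at least 10, MPP left and GMP right, with the members marked. In MPP, Dntt (-1.32) stands below the other genes with a mean of at least 1000, and in GMP the members lie among the other genes.

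The test of whether the change differed between populations gave 0 calls among the 7 members with a p in both tables. It took the difference of the log2 fold changes, MPP minus GMP, over the root of the summed squared SEs, and 0.0453% of 17660 genes passed an adjusted p of 0.05. It treats the populations as independent although 3 mice per genotype gave both. Ccr9 came closest, with -1.22 in MPP, 0.59 in GMP and a difference of -1.81 (adjusted p = 0.142, SE 0.464), the 12th smallest p of all genes tested. Its interval lay between -2.72 and -0.90. With errors correlated at 0.346, the correlation of both statistics across genes, Ccr9 passed with an adjusted p of 0.00269, as did 49 of 17660 genes in all. That correlation may also hold changes shared by both populations, so it may overstate the correlation of the errors.

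For the other members the difference, MPP minus GMP, was smaller. It was -0.80 for Il7r (SE 0.360, unadjusted p = 0.0273) and -0.82 for Lck (SE 0.466, unadjusted p = 0.0791), both with a GMP mean under 10. It was -0.41 (SE 0.390) for Rag2, -0.29 (SE 0.270) for Cd79b, -0.26 (SE 0.145) for Satb1 and -0.23 (SE 0.476) for Rag1. For the outlier-marked members the difference is a description, at -1.17 (SE 0.389) for Dntt, -0.66 (SE 0.192) for Flt3 and -0.58 (SE 0.216) for Notch1. With outlier-marked genes included in the same test of the difference, none of these passed. The adjusted p was 0.696 for Dntt, 0.319 for Flt3 and 0.959 for Notch1, and 8 of 18275 genes passed. All 10 differences lay below 0, but the share of all genes with a difference below 0 was not computed. Rag1, too, had a GMP mean under 10. The members were chosen with earlier results of these data known, so this count is only a description.

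**Figure D4:**
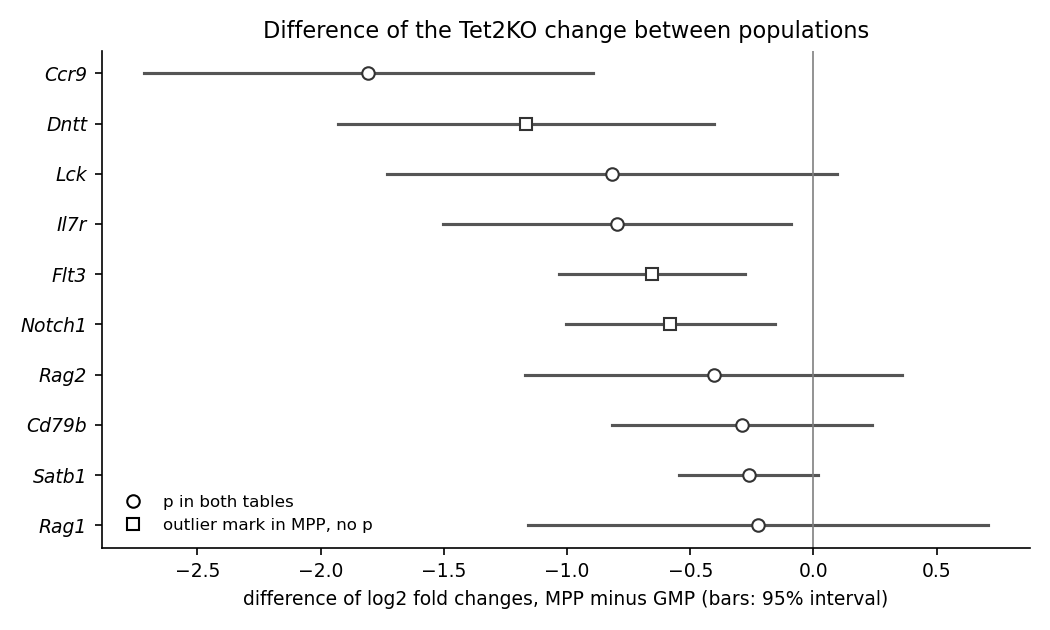
Difference of the log2 fold changes, MPP minus GMP, for each gene with its 95% interval, where squares carry an outlier mark in MPP and no p. Ccr9 has the largest difference (-1.81), and no gene with a circle passed an adjusted p of 0.05.

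Other genes of early lymphoid progenitors gave no call in MPP. Of the 14 tested, 5 lay above 0 and 9 below, with a median of -0.04. Coro1a, an actin regulator of lymphocytes, stood at -0.26 (adjusted p = 0.302, SE 0.0994) and Ccr7, a lymphoid homing receptor, at -0.72 (adjusted p = 0.537, SE 0.383), both from the authors' deposited table. In GMP 12 genes of this list were tested, with a median of 0.02. There Cd24a, a surface glycoprotein of early B cells, fell by 0.44 (adjusted p = 0.000435, SE 0.0951), and Sla2, an adaptor that dampens antigen receptor signalling, rose by 1.05 (adjusted p = 0.0467, SE 0.336) at a mean of 11.1, in the authors' deposited table.

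Lymphoid transcription factors gave 1 call in each population. In MPP 13 of 23 tested factors lay above 0 and 10 below, with a median of 0.07, and Runx1 rose by 0.47 (adjusted p = 0.00551, SE 0.106) in the authors' deposited table. Ikzf1, which encodes Ikaros, stood at -0.12 (SE 0.0954) in MPP and was not called. The B lineage factors Ebf1 and Pax5 had means of 4.30 and 1.32 in MPP and were not tested. In GMP 15 of 24 tested factors lay above 0 and 9 below, with a median of 0.04, and Irf8 rose by 0.50 (adjusted p = 0.00936, SE 0.131) in the authors' deposited table.

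Of the partners of the receptors, none passed in MPP. Among 17 tested genes of interleukin-7 and FLT3 signalling, 9 lay above 0 and 8 below, with a median of 0.01. Il2rg, the chain that pairs with the product of Il7r, stood at -0.12 (SE 0.107) in MPP in the authors' deposited table. The survival gene Bcl2 had a value of -0.21 (adjusted p = 0.391, SE 0.0919) and the kinase gene Pik3cd of 0.19 (adjusted p = 0.532, SE 0.102) in MPP, per the authors' deposited table. In GMP Bcl2 rose by 0.23 (adjusted p = 0.0218, SE 0.0669) in the authors' deposited table, as the 1 call among 16 tested genes with a median of 0.07. Of the Notch pathway genes 22 were tested in MPP and 21 in GMP, with medians of 0.04 and 0.02 and no call. The coactivator gene Maml3 stood at 0.36 (adjusted p = 0.328, SE 0.142) and the ligand gene Jag2 at -0.63 (adjusted p = 0.456, SE 0.296) in MPP, per the authors' deposited table. In GMP Ncstn and Adam10, which encode parts of the Notch cleavage machinery, stood at -0.15 (adjusted p = 0.123, SE 0.0589) and -0.16 (adjusted p = 0.132, SE 0.0637), per the authors' deposited table. The Notch target genes Hes1 and Dtx1 had means of 6.59 and 1.17 in MPP and were not tested, and the target gene Nrarp, with a mean of 36.2, stood at 0.12 (adjusted p = 0.960, SE 0.350) in MPP in the authors' deposited table.

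The end-joining genes that act after the RAG cut, with the RAG cofactors Hmgb1 and Hmgb2, gave no call. There were 12 tested in MPP and 13 in GMP, with medians of -0.13 and -0.10. Nhej1 had a value of -0.63 (adjusted p = 0.508, SE 0.320) and Xrcc6, which encodes KU70, of -0.17 (adjusted p = 0.547, SE 0.0898) in MPP, per the authors' deposited table. In GMP Hmgb1 stood at -0.19 (adjusted p = 0.0993, SE 0.0714) and Xrcc5, which encodes KU80, at -0.32 (adjusted p = 0.147, SE 0.130), per the authors' deposited table.

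Genes of committed lymphocytes were mostly too low to test. Of 25 B lineage genes 13 had a mean under 10 in MPP and 16 in GMP, and of 28 T lineage genes 16 in MPP and 19 in GMP. Among the 9 B lineage genes tested in MPP the median was 0.01 and none passed. Bank1 and Blnk, adaptor genes of B cell receptor signalling, stood at -1.02 (adjusted p = 0.271, SE 0.384) and -0.62 (adjusted p = 0.547, SE 0.336) in MPP, per the authors' deposited table. Cd79a, the partner chain of the Cd79b product, had a mean of 2.95 in MPP and 0.470 in GMP. In GMP the median of 8 tested B lineage genes was 0.15, and Ralgps2 rose by 0.21 (adjusted p = 0.0201, SE 0.0604) in the authors' deposited table. Among T lineage genes 10 were tested in MPP and 9 in GMP, with medians of -0.01 and 0.01 and no call. Thy1, a T cell surface glycoprotein, stood at -0.33 (adjusted p = 0.795, SE 0.310) and the adaptor gene Lcp2 at 0.14 (adjusted p = 0.813, SE 0.133) in MPP, per the authors' deposited table. The GTPase genes Gimap6 and Gimap5 stood at 0.31 (adjusted p = 0.569, SE 0.234) and -0.34 (adjusted p = 0.713, SE 0.357) in GMP, per the authors' deposited table.

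**Figure D5:**
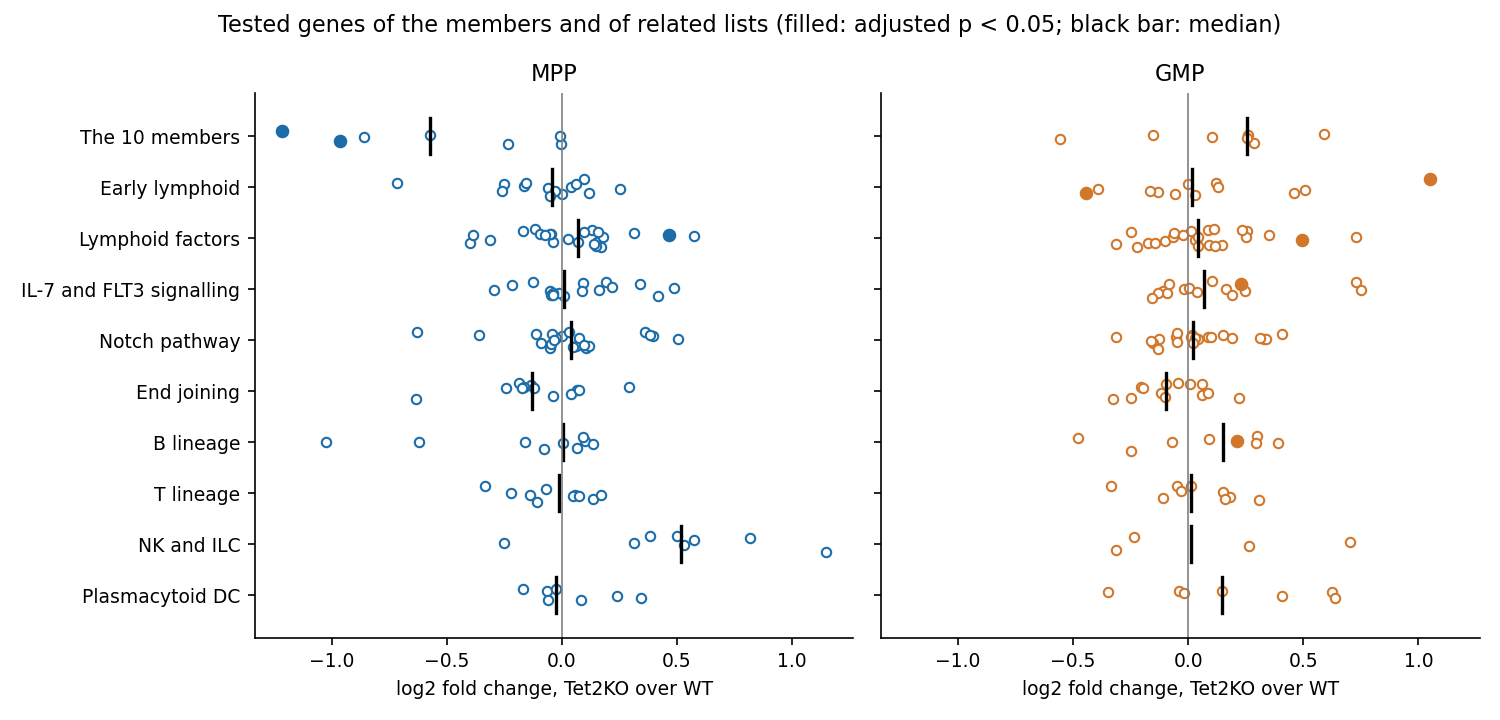
Log2 fold change, Tet2KO over WT, of each tested gene of the members and of 9 related lists, MPP left and GMP right, with filled points for an adjusted p under 0.05 and black bars for medians. The members have a median of -0.57 in MPP and 0.25 in GMP, and the median of the natural killer and innate lymphoid list in MPP is 0.52.

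Markers of other cell types were read in the same tables. In MPP 8 of 10 tested megakaryocyte markers lay above 0, with a median of 0.22, and 1 of them passed as higher, per the authors' deposited table for that population. None of 5 tested monocyte and 2 tested neutrophil markers passed in MPP. The monocyte markers Cx3cr1 at 0.85 (adjusted p = 0.340, SE 0.341) and Lyz2, which encodes lysozyme, at -0.28 (adjusted p = 0.241) were those with an unadjusted p under 0.05 there, per the authors' deposited table of MPP. In GMP 3 of 8 tested megakaryocyte markers rose, namely Vwf, F2r and Pf4, and 5 of 7 tested monocyte markers rose with a median of 0.50, among them Ms4a6c by 0.56 (adjusted p = 6.74e-09, SE 0.0812). Of 3 tested neutrophil markers in GMP 1 lay above 0 and 2 below, with a median of -0.41. The marker above 0, Mmp8, rose by 1.36 (adjusted p = 2.21e-05, SE 0.252), in the authors' deposited table. Of 7 tested GMP gate markers Ctsg fell by 0.31 (adjusted p = 0.00434, SE 0.0767), in the same table. Summed over both genotypes, megakaryocyte markers took 702 ppm in MPP and 396 in GMP, monocyte markers 393 in MPP and 823 in GMP, erythroid markers 353 in MPP and 468 in GMP, and neutrophil markers 8.89 in MPP and 37.5 in GMP. The globin genes Hba-a1 and Hba-a2 are at 0 in both tables. These sums cannot be split by genotype, and their part in the values of the 10 genes was not tested.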

How the data were processed

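RNA from sorted MPP and GMP, 2 ng per sample, gave single-end 75 bp libraries per the labels' protocols. STAR, mm10 and DESeq2 are named without versions in the submitters' processing notes; neither counter nor annotation is stated in the sources used here. The mean is a normalized signal deposited by the authors. The log2 fold change, its SE and both p-values are also deposited by the authors. Each p-value matched a normal test of fold change over SE within 0.00206 on the log10 scale, and each adjusted p matched Benjamini-Hochberg over genes of status OK within 2.4e-05. That status needs a mean of at least 10 and no outlier mark. The median SE was 0.350 in MPP and 0.303 in GMP at means of 10 to 50, and 0.102 in MPP and 0.0744 in GMP above 1000. SEs are small again at the lowest means (0.152 for Zap70 at a mean of 0.397 in MPP), so changes of low genes may be understated.

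Intervals are 95% normal ranges. The difference between populations was adjusted over all genes that have a p-value in each table, also those with a low mean, and was tested on simulated data. Shares divide a mean by the summed means, of which the ribosomal RNA gene Rn45s took 6.71% in MPP and 9.06% in GMP. Positions and exon lengths come from GENCODE M21 (mm10). The members and lists were chosen with earlier results of these data known, and some lists share genes. Named are all 10 members and, of each list, called genes (up to 4 per population) or, with none called, 2 of smallest p; a called marker gene in MPP is not reported by name here. Ikzf1, Il2rg, Nrarp, Cox6a2, Tlr7 and Tlr9 in MPP, outlier-marked marker genes and genes given only by their means were added for their roles after their values were seen. Cd8a, Ly6d and Ly6c2 in MPP were then added as genes of the plasmacytoid list with values above 0. P-values measure the spread between mice as the authors fitted it. Computing used Python 3.11.15 (numpy 2.4.6; pandas 2.3.3; scipy 1.17.1; figures by matplotlib 3.10.9).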

Additional observations from a re-analysis of the deposited data

How the results depend on the processing

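Leaving out single libraries was not run, since the tables hold no values per library. No paired analysis was possible because the tables hold no values per library. In MPP Rag2 and Ccr9 stayed called with a minimum mean of 50, with outlier-marked genes included, at a threshold of 0.1 and after recentring on the median, and Dntt was called as well when outlier-marked genes were included. With an empirical null, which divides each statistic by the robust spread over all genes (1.15 in MPP and 1.35 in GMP), 0 members were called in MPP (adjusted p of 0.140 for Rag2 and 0.203 for Ccr9), and 17 of all genes. Over the alternatives the adjusted p in MPP lay between 0.0152 and 0.140 for Rag2 and between 0.0274 and 0.203 for Ccr9. In GMP the empirical null left 72 of all genes called. At a threshold of 0.1, 768 of all genes and 1 member, Satb1, were called in GMP. For the difference between populations 1 member, Ccr9, passed with correlated errors, as did 49 of all genes. After recentring, Cd79b stood at 0.0014 in MPP in place of -0.0023. The median of the members was -0.52 in MPP and 0.17 in GMP over all 10. Scaling by the median of ratios lowered each log2 ratio of MPP to GMP by 0.16 and turned no direction. Low means limit Rag1, Il7r, Lck, Ccr9, Dntt and Rag2 in GMP.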

Other observations

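Genes of natural killer and innate lymphoid cells, another branch of the lymphoid lineages, gave no call in MPP, although 7 of 8 tested genes lay above 0 with a median of 0.52. In the authors' deposited table Klrk1, an activating receptor, stood at 1.15 (adjusted p = 0.182, SE 0.388) and the chemokine gene Ccl5 at 0.82 (adjusted p = 0.440, SE 0.375) in MPP, at means of 16.6 and 11.9. In GMP 4 genes of that list were tested, with a median of 0.01 and no call, and Nkg7, a cytotoxic granule protein gene, stood at -0.24 (adjusted p = 0.110, SE 0.0889) and Klrk1 at 0.70 (adjusted p = 0.247, SE 0.327) in the authors' deposited table. Of the genes of plasmacytoid dendritic cells, which can also carry Ccr9, 7 were tested in each population, with medians of -0.03 in MPP and 0.15 in GMP and no call. In the authors' deposited table Tlr9 and Tlr7, sensors of nucleic acids, stood at 0.64 (adjusted p = 0.148, SE 0.257) and 0.62 (adjusted p = 0.231, SE 0.286) in GMP. Of the tested genes in MPP, 3 lay above 0 and 4 below. Those of smallest p were Tcf4 at -0.17 (adjusted p = 0.646, SE 0.108) and Pacsin1 at 0.34 (adjusted p = 0.843, SE 0.388). Tlr9 stood at 0.24 (SE 0.343) in MPP. Genes without a test lay on both sides of 0 there. Tlr7, with an outlier mark and a mean of 231, stood at -0.59 (SE 0.249), and Cox6a2, with a mean of 9.46, at -0.88 (SE 0.385). Cd8a stood at 1.05 (SE 0.388), Ly6d at 0.55 (SE 0.317) and Ly6c2, with an outlier mark, at 0.79 (SE 0.371), per the authors' deposited table. Cd8a and Ly6d had means of 7.53 and 2.77. The part of these cells in the value of Ccr9 was not tested. The defining gene Siglech had a mean of 1.81 in MPP and 0.269 in GMP.

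Genes related to Ccr9, Lck and Flt3 by family gave few calls. Of the other chemokine receptors 8 were tested in MPP and 10 in GMP, with medians of -0.29 and 0.11 and no call. In the authors' deposited table Cx3cr1 stood at 0.85 (adjusted p = 0.340, SE 0.341) and Ccr3, a receptor of eosinophils, at -0.91 (adjusted p = 0.369, SE 0.381) in MPP. Among the kinases of the Src family and their regulators Csk and Ptprc, 8 were tested in MPP and 5 in GMP, with medians of -0.01 and -0.07 and no call. Of the receptor kinases related to FLT3, Pdgfrb rose by 0.83 (adjusted p = 0.00450, SE 0.186) in MPP and by 0.48 (adjusted p = 3.41e-05, SE 0.0909) in GMP, and Csf1r, the receptor of macrophage colony-stimulating factor, rose by 0.56 (adjusted p = 9.29e-05, SE 0.111) in GMP, in the authors' deposited tables.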
